A study of Danio rerio with 6 samples.

Results

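The urotensin peptide genes were followed in 6 pools of whole zebrafish larvae, 3 kept in PCB-11 and 3 in DMSO. Members were taken by symbol from a list of 8 genes: the peptide precursor genes urp1, urp2, uts1, uts2a and uts2b, and the spinal fluid-contacting neuron and Reissner fiber genes pkd2l1, pkd1l2a and sspo. Of these, 4 were matched to the 14791 gene symbols of the count tables, and all 4 (urp2, uts1, uts2a and uts2b) passed the filter on low counts, which left 12960 genes in the test. The other 4, urp1, pkd2l1, pkd1l2a and sspo, matched neither by symbol nor by a RefSeq synonym and were not analysed here. The list was put together with earlier results of the comparison of PCB-11 with DMSO known, in which urp2 had stood out. The differences of the members between the groups are therefore given as a description, without a test.

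Urotensin II-related peptides are small cyclic peptides cut from larger precursors, and they share a ring that resembles the one in somatostatin. In zebrafish, urp1 and urp2 are made by cerebrospinal fluid-contacting neurons, ciliated cells that line the central canal of the spinal cord and sense its fluid through the channel protein Pkd2l1. Ciliary beating and the Reissner fiber, a thread of the protein that sspo encodes, are required in zebrafish for normal urp expression. The peptides and a urotensin II receptor in muscle have been linked to the shape of the body axis. The precursor genes uts2a and uts2b encode urotensin II itself, which in fish is known from the caudal neurosecretory system at the end of the spinal cord. The product of uts1, urotensin I, belongs to another family, that of corticotropin-releasing hormone, and is known in fish from the same caudal neurons and from the brain.

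The PCB-11 pools held larvae of strain AB that had been in 4500 µg/L of 3,3'-dichlorobiphenyl from 24 to 96 h after fertilization. The DMSO pools held larvae of the same strain and age kept in the vehicle alone. Both groups had DMSO at 0.05% v/v, had their chorions removed by hand before dosing and stayed in unchanged medium in vials of 5. Each pool held 18 to 20 whole animals. The labels do not say whether the pools came from separate clutches, and the p-values below rest on pool-to-pool spread that may be partly technical.

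Reads counted in genes ranged from 15705712 to 20479751 per pool. PCB-11 replicate 2 stood apart: it had the fewest gene reads, the largest share of reads outside genes (39.1%, against 31.4% to 35% in the others) and a score of -36.9 on the first principal component, where the others had -9.3 to 16.4 and which held 43.9% of the variance. Values of the members without this pool are given beside the results. Pooled whole animals cannot show whether a transcript changed per cell or whether the cells that make it became more or fewer. The defining markers pkd2l1, pkd1l2a and urp1 were not analysed here, so the tie of these counts to fluid-contacting neurons could not be checked on them. Levels are given in CPM, reads of the gene scaled to a common total of gene reads per pool, with TMM factors and without division by transcript length. They were compared between pools for 1 gene and not between genes.

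The urp2 transcript, the precursor of a peptide of the fluid-contacting neurons, was the member that differed most. It had 4.08, 6.39 and 6.01 CPM in the PCB-11 pools, against 2.01, 2.08 and 2.19 CPM in the DMSO pools, each in the order of replicates 1, 2 and 3, which all later lists of pool values follow. All 3 PCB-11 pools lay above all 3 DMSO pools, and the lowest of them, replicate 1, was still well clear of the controls. These levels rest on 79, 104 and 114 reads in the PCB-11 pools and on 35, 40 and 43 reads in the DMSO pools. Means were 5.49 ± 1.24 CPM in PCB-11 and 2.09 ± 0.0931 CPM in DMSO (SD, n = 3 each). The fitted log2 fold change of urp2 was 1.38 ± 0.22 (SE), a 2.61-fold higher level in PCB-11.

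Over the 3 pools together, 297 urp2 reads were counted in PCB-11 (exact 95% Poisson interval 264 to 333) and 118 in DMSO (97.7 to 141). The intervals cover counting error only. The coefficient of variation of urp2 was 22.6% between PCB-11 pools, where counting error alone gives about 10.1%, and 4.45% between DMSO pools, where it gives about 15.9%. The exposed pools thus spread more than counting error, and the DMSO pools lay closer together than counting error would on average allow.

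**Figure D1:**
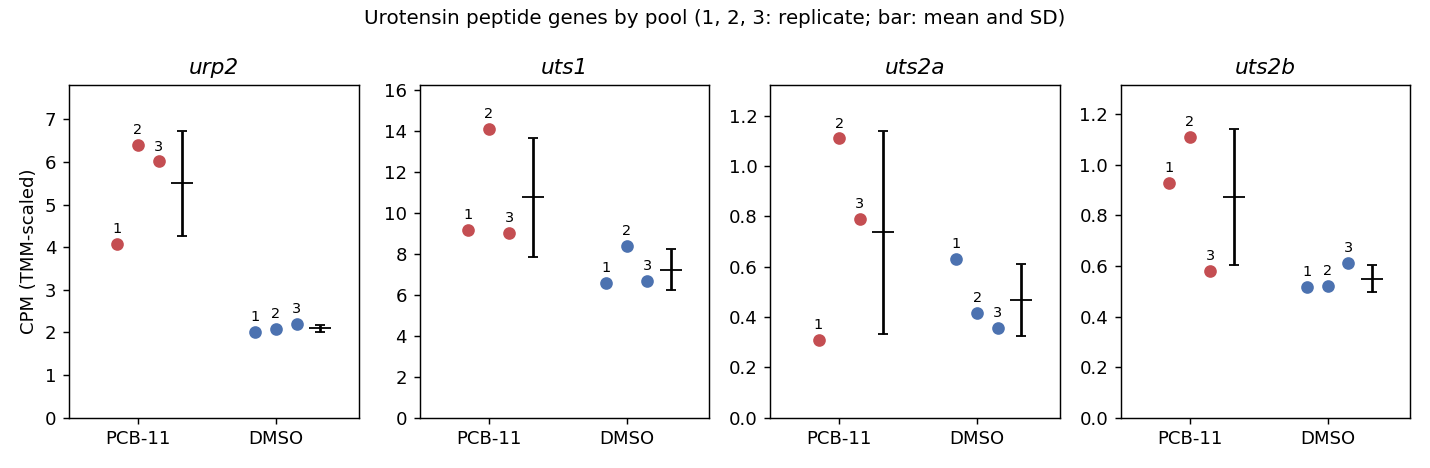
CPM (TMM-scaled, vertical axis from 0, scale differing by panel) of urp2, uts1, uts2a and uts2b in the 3 PCB-11 pools (red, left) and the 3 DMSO pools (blue, right), numbered by replicate, with the mean and SD of each group as a bar. For urp2 the PCB-11 pools stand at 4.08 to 6.39 CPM and the DMSO pools at 2.01 to 2.19 CPM, while the groups overlap for uts2a and uts2b.

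The uts1 transcript, the precursor of urotensin I, was higher in PCB-11 by a smaller amount. Its levels were 9.14, 14.1 and 9.01 CPM in the PCB-11 pools, against 6.59, 8.39 and 6.68 CPM in the DMSO pools. The groups did not overlap, but PCB-11 replicate 2 stood alone at the top, and the gap between the lowest PCB-11 pool and the highest DMSO pool was small. The mean was 10.8 ± 2.92 CPM in PCB-11 and 7.22 ± 1.01 CPM in DMSO (SD, n = 3 each). The log2 fold change was 0.57 ± 0.20 with all pools and 0.33 without PCB-11 replicate 2. Reads numbered 171 to 230 per PCB-11 pool and 115 to 161 per DMSO pool, so counting error (about 7.2% and 8.59%) was smaller than the spread between pools (27% and 14%).

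The urotensin II precursor genes uts2a and uts2b were near the limit of detection. For uts2a there were 6, 18 and 15 reads in the PCB-11 pools, against 11, 8 and 7 reads in the DMSO pools. The lowest and the highest of the 6 pools were both PCB-11 pools, and the groups overlapped. Its mean level was 0.735 ± 0.401 CPM in PCB-11 and 0.468 ± 0.144 CPM in DMSO (SD, n = 3 each), with a log2 fold change of 0.63 ± 0.49. Leaving out PCB-11 replicate 2 gave 0.24 and leaving out PCB-11 replicate 1 gave 1.01.

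For uts2b there were 18, 18 and 11 reads in the PCB-11 pools, against 9, 10 and 12 reads in the DMSO pools. PCB-11 replicates 1 and 2 were higher than every DMSO pool, and replicate 3 lay inside their range. The mean level of uts2b was 0.872 ± 0.268 CPM in PCB-11 and 0.549 ± 0.0538 CPM in DMSO, with a log2 fold change of 0.65 ± 0.34. Leaving out PCB-11 replicate 2 gave 0.45. Summed over pools, uts2a had 39 reads in PCB-11 (interval 27.7 to 53.3) and 26 in DMSO (17 to 38.1), and uts2b had 47 (34.5 to 62.5) and 31 (21.1 to 44). The coefficient of variation of uts2a between PCB-11 pools was 54.6%, where counting error alone gives about 27.7%. For uts2b it was 30.7%, where counting error gives about 25.3%.

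None of the 4 members was among the genes called, at an adjusted p under 0.05 in edgeR's quasi-likelihood test, where 0.0463% of all genes tested were called (6 of 12960). One member, urp2, was among the genes called by DESeq2 (0.864% of all genes), by edgeR without PCB-11 replicate 3 (1.41%) and by edgeR with the replicate number as a block (0.201%). No member was called under the other 11 alternatives. For uts2a and uts2b this covers only fits that tested them, since the stricter filter removed both and DESeq2 gave neither an adjusted p. All 3 PCB-11 pools lay above all 3 DMSO pools for 2 members, urp2 and uts1, and over all genes this held for 10.0%. The log2 fold change was positive for all 4 members and for 50.2% of all genes, and it was 1 or more for urp2 alone among the members and for 0.293% of all genes. Because this same contrast shaped the choice of members, these shares are given for scale only.

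**Figure D2:**
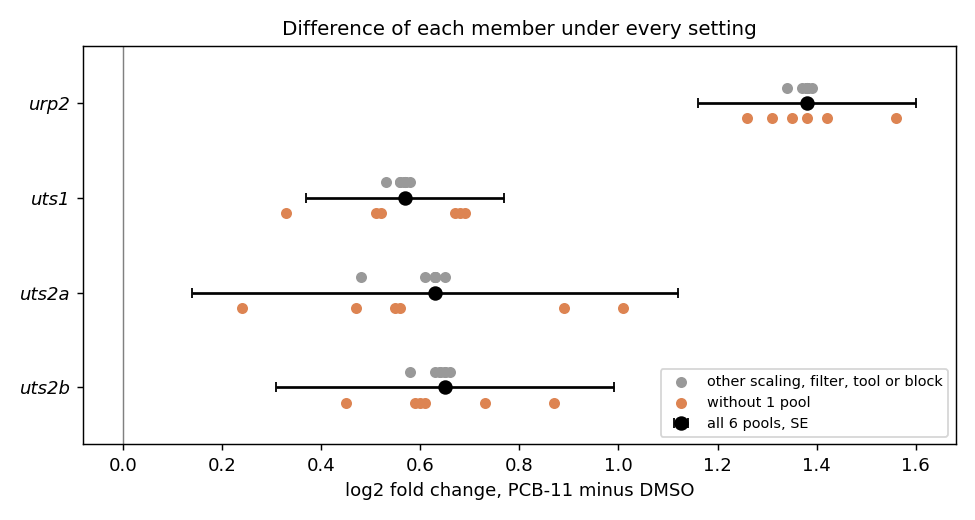
Log2 fold change (PCB-11 minus DMSO, horizontal axis) of each member with all 6 pools (black, SE bar), under another scaling, filter, tool or a replicate block (grey), and without 1 pool (orange). The values of urp2 run from 1.26 to 1.56 and those of uts1 from 0.33 to 0.69, and every point lies above 0.

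The pools also differed in their levels of neuron, muscle and macrophage markers. The neuron markers, 19 tested of 22, had a median log2 difference from the DMSO mean of 0.14, 0.50 and -0.16 in the PCB-11 pools and of 0.04, 0.01 and -0.04 in the DMSO pools. Their summed level was 4210 to 6400 CPM in PCB-11 and 4280 to 4570 CPM in DMSO. PCB-11 replicate 2 was the pool richest in neuron transcripts, and PCB-11 replicate 3 was the poorest by the list median. Of the defining neuron markers, gap43 was listed at 0 in every pool.

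Beside these values, urp2 stood at 0.93, 1.56 and 1.47 above the DMSO mean in the PCB-11 pools, on the log2 scale. In replicate 3, whose neuron median was below the DMSO mean, urp2 exceeded that median by 1.63, and the same difference was 0.79 in replicate 1 and 1.06 in replicate 2, against -0.10 to 0.10 in the DMSO pools. Without PCB-11 replicate 2 the log2 fold change of urp2 was 1.26. For uts1 the difference from the neuron median was 0.21, 0.47 and 0.48 in the PCB-11 pools and -0.16, 0.21 and -0.06 in the DMSO pools, so on this scale PCB-11 replicate 1 and DMSO replicate 2 coincided. For uts2a it was -0.57, 0.60 and 0.83 in PCB-11 and -0.24 to 0.35 in DMSO, and for uts2b it was 0.52, 0.39 and 0.23 in PCB-11 and -0.11 to 0.17 in DMSO.

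By list median, the macrophage markers, 14 tested of 20, split the pools in a way that cut across the groups. Their median log2 differences were -0.66, -0.74 and 0.52 in the PCB-11 pools and -0.60, 0.51 and 0.10 in the DMSO pools, with summed levels of 89.6 to 184 CPM in PCB-11 and 128 to 186 CPM in DMSO. The macrophage gene mpeg1.1 had 1, 6 and 225 reads in the PCB-11 pools and 2, 177 and 110 in the DMSO pools, and lgals9l1 was listed at 0 in every pool. The log2 fold change was below 0 for 10 of the 14 (6451 of 12960 over all genes), with a list median of -0.28. For 1 of them, slc7a7 (-0.60 ± 0.18), all PCB-11 pools lay below all DMSO pools, which held for 1212 of the 12960. The muscle markers, 17 tested, stood at -0.47, -0.51 and 0.18 in the PCB-11 pools and at -0.04 to 0.06 in the DMSO pools, and their summed level was 34800 to 55200 CPM in PCB-11 and 44300 to 48300 CPM in DMSO. Glia markers, 15 tested, had medians of 0.08, 0.08 and 0.17 in the PCB-11 pools and of -0.02 to 0.02 in the DMSO pools. All PCB-11 pools lay above all DMSO pools for 5 of the 15, and for 10.0% of all genes. DESeq2 called 2 of the 15, s100b and gfap, and 0.864% of all genes. By edgeR 0 of the 15 were called, and 0.0463% of all genes. The calcium-binding protein gene s100b had 31.3 ± 4.04 CPM in PCB-11 and 15.3 ± 2.37 CPM in DMSO (SD, n = 3 each), a log2 fold change of 1.03 ± 0.15 with an adjusted p of 0.0703 in edgeR. The glial filament gene gfap had a log2 fold change of 0.36 ± 0.10, and the glutamine synthetase genes glula and glulb had 0.32 ± 0.12 and 0.30 ± 0.11. These 4 glia genes were named after their values were seen. Over the 15 the median log2 fold change was 0.10, and 4 genes were below 0, among them slc1a3b (-0.33 ± 0.14) and mpz (-0.40 ± 0.21). At an unadjusted p under 0.05 in edgeR, 4 of the 15 were higher and 1 was lower. The part of the neuron, glia, macrophage and muscle lists in the values of the 4 members was not tested.

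**Figure D3:**
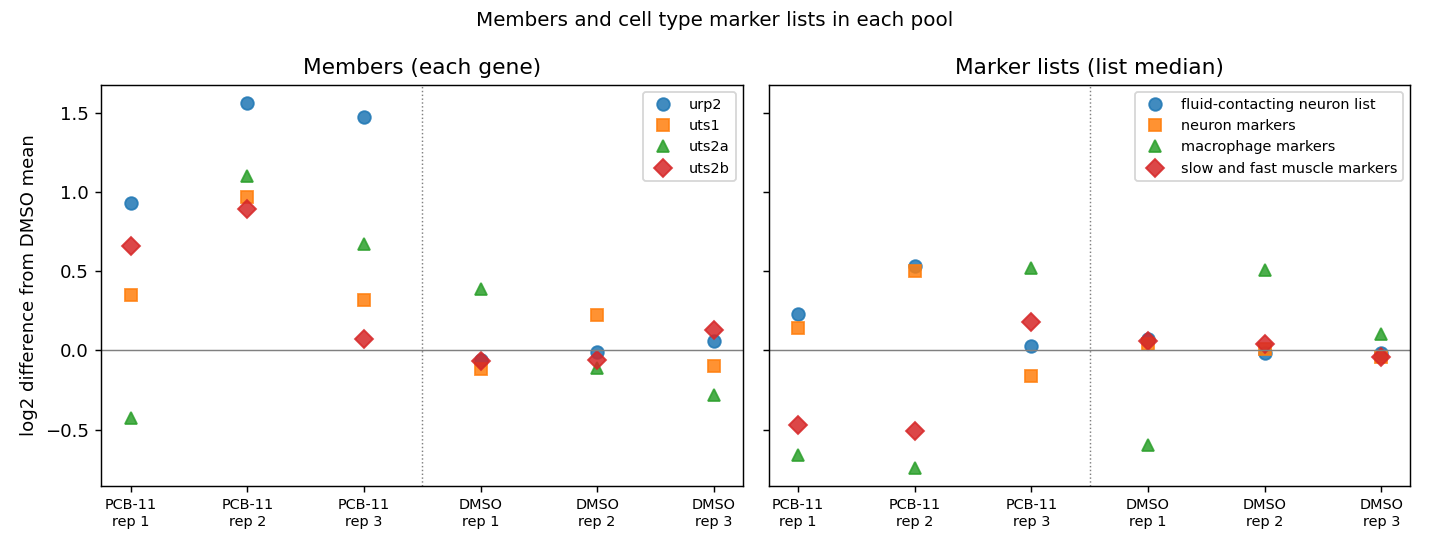
Log2 difference from the DMSO mean (vertical axis) in each of the 6 pools, for each member (left panel) and as the list median for fluid-contacting neuron genes, neuron, macrophage and muscle markers (right panel). In PCB-11 replicate 3 urp2 stands at 1.47 while the neuron median is at -0.16, and in PCB-11 replicate 2 all 4 members and both neuronal lists are above 0.

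Genes around the peptides in their pathways were taken from 5 lists: receptors and relatives, other genes of fluid-contacting neurons, the floor plate, motile cilia with body axis genes, and precursor processing. Together they held 61 tested genes, none of which was called in edgeR's test over all genes. At an unadjusted p under 0.05, 17 of the 61 had higher values in PCB-11 (27.9%, against 5.80% of all genes) and 3 had lower values (4.92%, against 6.04%). These counts depended on single pools: 27 were higher and 3 lower without PCB-11 replicate 3, 10 and 2 without PCB-11 replicate 2, and 8 and 1 without DMSO replicate 2. Over all genes the shares were then 11.3% and 11.6%, 4.40% and 4.69%, and 2.77% and 2.82%. The median log2 fold change of the 61 was 0.22, where that of all genes was 0. DESeq2, which called 0.864% of all genes, called 2 of them, crhbp and foxj1a, and limma-voom called 0. The lists were chosen with earlier results of these data known, so these shares and medians are given for scale only.

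Among receptors and relatives, 5 of 14 entries were tested, and their median log2 fold change was 0.58. The nearest to a call was crhbp, which encodes the secreted protein that binds corticotropin-releasing hormone and urotensin I. Its levels were 40.0, 57.1 and 45.9 CPM in the PCB-11 pools, against 29.2, 24.8 and 25.8 CPM in the DMSO pools. All PCB-11 pools were above all DMSO pools by more than the spread within DMSO. The log2 fold change was 0.84 ± 0.14, with an adjusted p of 0.136 in edgeR and 0.000209 in DESeq2, and over all alternatives the adjusted p ran from 0.000209 to 0.825.

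The urocortin gene ucn3l, a hormone of the same family as urotensin I, had 3.87, 6.76 and 3.69 CPM in PCB-11 and 3.27, 3.18 and 3.06 CPM in DMSO. The groups did not overlap, with PCB-11 replicate 2 again highest, and the log2 fold change of 0.58 ± 0.25 became 0.26 without that pool (adjusted p = 0.415 in edgeR with all pools). The stress hormone precursor gene crhb had 9.61, 14.9 and 8.16 CPM in PCB-11 and 10.4, 9.11 and 9.02 CPM in DMSO, so the groups overlapped (log2 fold change 0.19 ± 0.21, adjusted p = 0.714 in edgeR). Its value was -0.10 without PCB-11 replicate 2.

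The remaining tested genes of that list were uts2d and crhr2. RefSeq gives urp as a synonym of uts2d, that is, of a further urotensin II-related precursor. It had 16, 33 and 17 reads in the PCB-11 pools and 11, 8 and 23 reads in the DMSO pools. The groups overlapped, and the log2 fold change of 0.72 ± 0.48 became 0.21 without PCB-11 replicate 2 (adjusted p = 0.546 in edgeR with all pools). The receptor gene crhr2, whose product binds urocortins and urotensin I, had 23 to 35 reads in PCB-11 and 24 to 49 in DMSO (log2 fold change -0.18 ± 0.29). Receptors of urotensin II were not analysed here.

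Other genes of fluid-contacting neurons, with 17 of 23 entries matched and all 17 tested, had a median log2 fold change of 0.30. Values were above 0 for 16 of the 17, and for 50.2% of all genes. The gene below 0 was espn (-0.65 ± 0.29), with overlapping groups. At an unadjusted p under 0.05 in edgeR, 5 of the 17 were higher and 0 lower, where 5.80% and 6.04% of all genes were. None was called. The somatostatin gene sst1.1, known in zebrafish from a subset of these neurons and also from other endocrine cells, had 27.0, 35.9 and 28.8 CPM in PCB-11, against 24.1, 17.5 and 21.6 CPM in DMSO (log2 fold change 0.54 ± 0.15, adjusted p = 0.317 in edgeR). A second somatostatin gene, sst3, had a log2 fold change of 0.50 ± 0.15, and the secreted proteoglycan gene esm1 one of 0.47 ± 0.15. For these 3 genes of the 17 all PCB-11 pools lay above all DMSO pools, which held for 10.0% of all genes. The transcription factor gene tal1, best known from blood formation, had 0.37 ± 0.15 with overlapping groups. Without PCB-11 replicate 2 the value was 0.32 for sst3 and 0.23 for tal1. The transcription factor genes gata2a (0.07 ± 0.11), gata2b (0.04 ± 0.25) and gata3 (0.13 ± 0.11) were near 0, with overlapping groups.

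Most of these genes are also used elsewhere in the nervous system or body. The list ranked the PCB-11 pools by median in the same order as the neuron markers did. By pool, its median was 0.23, 0.53 and 0.03 in PCB-11 and -0.02 to 0.07 in the DMSO pools. The neuron markers had a lower median in each PCB-11 pool, 0.14, 0.50 and -0.16, and -0.04 to 0.04 in the DMSO pools. The level of urp2 was higher in replicate 3 than in replicate 1, and the part of neuron content in it was not tested. The GABA synthesis gene gad1b, expressed by fluid-contacting and many other neurons, had 437 ± 91.2 CPM in PCB-11 and 356 ± 15.7 CPM in DMSO (SD, n = 3 each), with a log2 fold change of 0.30 ± 0.15 that was 0.12 without PCB-11 replicate 2.

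**Figure D4:**
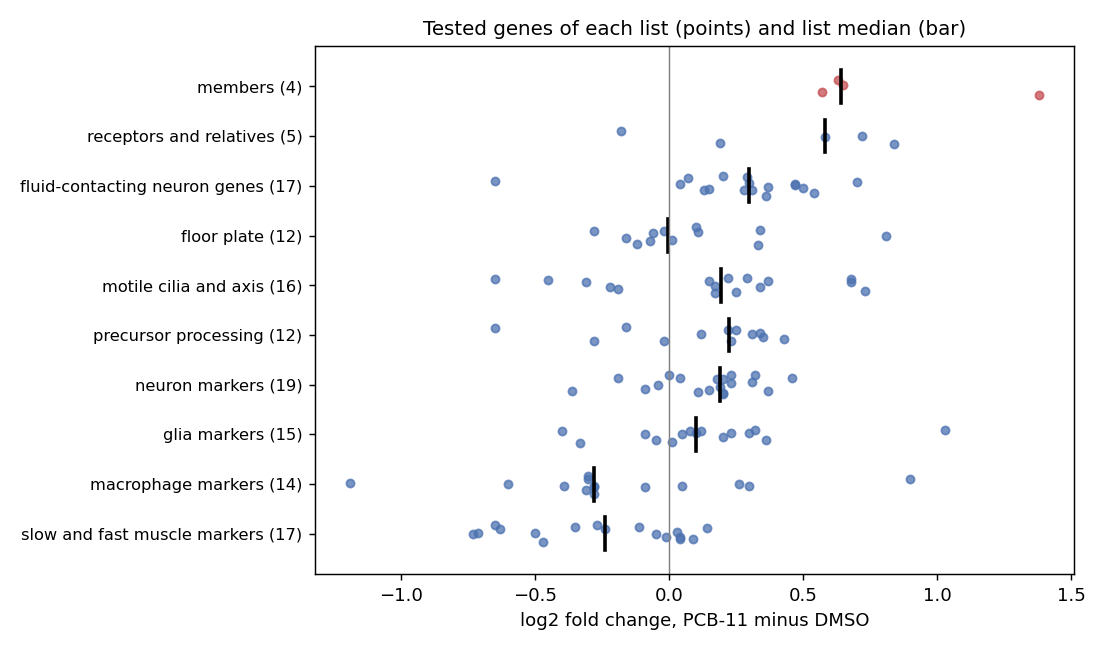
Log2 fold change (PCB-11 minus DMSO, horizontal axis) of each tested gene (points, spread vertically for legibility) in the members and in 9 lists, with the number tested in parentheses and the list median as a bar. The medians are 0.58 for receptors and relatives, 0.30 for fluid-contacting neuron genes, 0.19 for neuron markers and -0.24 for muscle markers.

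The floor plate list, with 12 of 13 genes tested, was centred at 0 (median log2 fold change -0.01), with 6 genes on each side. The gene furthest from 0 was foxj1a, the master factor for motile cilia. It had 11.8, 10.3 and 10.9 CPM in the PCB-11 pools, against 6.65, 6.72 and 5.45 CPM in the DMSO pools. The groups were widely apart and each was narrow, and unlike uts1 the gene was not highest in PCB-11 replicate 2. The log2 fold change was 0.81 ± 0.14, with an adjusted p of 0.154 in edgeR and 0.00315 in DESeq2 (0.00315 to 0.678 over all alternatives). Its paralog foxj1b had 5.98 ± 0.18 CPM in PCB-11 and 4.77 ± 0.261 CPM in DMSO (SD, n = 3 each), with a log2 fold change of 0.33 ± 0.14. The signalling gene shhb, which patterns the ventral spinal cord, had a log2 fold change of -0.28 ± 0.15, and scg5, which encodes a granule chaperone, one of 0.34 ± 0.15. Without PCB-11 replicate 2 these became -0.18 for shhb and 0.14 for scg5. All PCB-11 pools lay above all DMSO pools for 3 of the 12, foxj1a, foxj1b and scg5, and below them for 0. Over all 12960 genes this held for 1298 and 1212.

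Motile cilia and body axis genes lay on both sides of 0, with 11 of the 16 tested above it (50.2% of all genes) and a median of 0.19. The gene zmynd10, which acts in assembling the dynein arms that drive ciliary beating, stood at 2.38, 1.90 and 1.84 CPM in PCB-11, against 1.26, 1.35 and 1.07 CPM in DMSO. Another gene of dynein arm assembly, dnaaf1, stood at 1.86, 1.6 and 1.69 CPM in PCB-11, against 1.03, 1.2 and 0.968 CPM in DMSO. The groups did not overlap for either gene, and the log2 fold changes were 0.73 ± 0.24 and 0.68 ± 0.24 (adjusted p = 0.347 and 0.373 in edgeR). Of further genes of the list, ccdc103 (0.68 ± 0.30), ccdc40 (0.29 ± 0.17), ccdc114 (0.34 ± 0.23) and ccdc151 (0.15 ± 0.20) had groups that overlapped. For c10h21orf59 (0.17 ± 0.12) and ift80 (0.17 ± 0.09) all PCB-11 pools lay above all DMSO pools. The ciliary GTPase gene arl13b had a log2 fold change of 0.37 ± 0.10. On the other side, ptk7a, a Wnt receptor gene whose loss causes spinal curvature in zebrafish, had 4.85, 2.89 and 5.43 CPM in PCB-11, against 6.59, 7.60 and 6.57 CPM in DMSO (log2 fold change -0.65 ± 0.22, adjusted p = 0.372 in edgeR, and -0.43 without PCB-11 replicate 2). The other genes below 0 were bbs4 (-0.31 ± 0.13), kif7 (-0.22 ± 0.11), pkd2 (-0.45 ± 0.23) and rpgrip1l (-0.19 ± 0.27). All PCB-11 pools lay above all DMSO pools for 5 of the 16 and below them for 3. Over all 12960 genes this held for 1298 and 1212.

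Genes for cutting and packing peptide precursors lay on both sides of 0 as well, with 8 of 12 above 0 (50.2% of all genes) and a median of 0.22. The granule proteins scg2b, scg3 and chgb had log2 fold changes of 0.43 ± 0.15, 0.31 ± 0.11 and 0.35 ± 0.15. Each was highest in PCB-11 replicate 2, the pool richest in neuron transcripts, and the values were 0.24, 0.20 and 0.15 without that pool. The part of neuron content in these values was not tested. The convertase gene furina had lower values, 6.92, 4.73 and 5.27 CPM in PCB-11, against 9.91, 9.48 and 7.29 CPM in DMSO (log2 fold change -0.65 ± 0.19, adjusted p = 0.321 in edgeR). The neuroendocrine convertase genes pcsk1 and pcsk2 had log2 fold changes of -0.02 ± 0.44 and -0.16 ± 0.25.

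The genes most like each member were sought among the 11883 or 11884 other tested genes whose mean log2 CPM reached 1, by the root mean square distance between centred log2 CPM values over the 6 pools. Nearest to urp2 were si:ch211-119o8.7 (0.12), ndrg1b (0.15) and nppc (0.16), the precursor gene of C-type natriuretic peptide, where urp2 itself varied by 0.69 about its own mean. Since urp2 differs strongly between the groups, any gene with a similar difference comes out near it. Nearest to uts1 were LOC100537897 (0.06), the RNA-binding protein gene mbnl1 (0.07) and the neuroglobin gene ngb (0.08), all highest in PCB-11 replicate 2. Nearest to uts2b were the lens crystallin gene crygm2d3 and the neuropeptide genes npb and avp (0.09 each). Nearest to uts2a were si:ch211-237l4.6 (0.21), si:ch211-199o1.2 (0.23) and rchy1 (0.24), a looser match than for the other members. The reason was not tested.

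**Figure D5:**
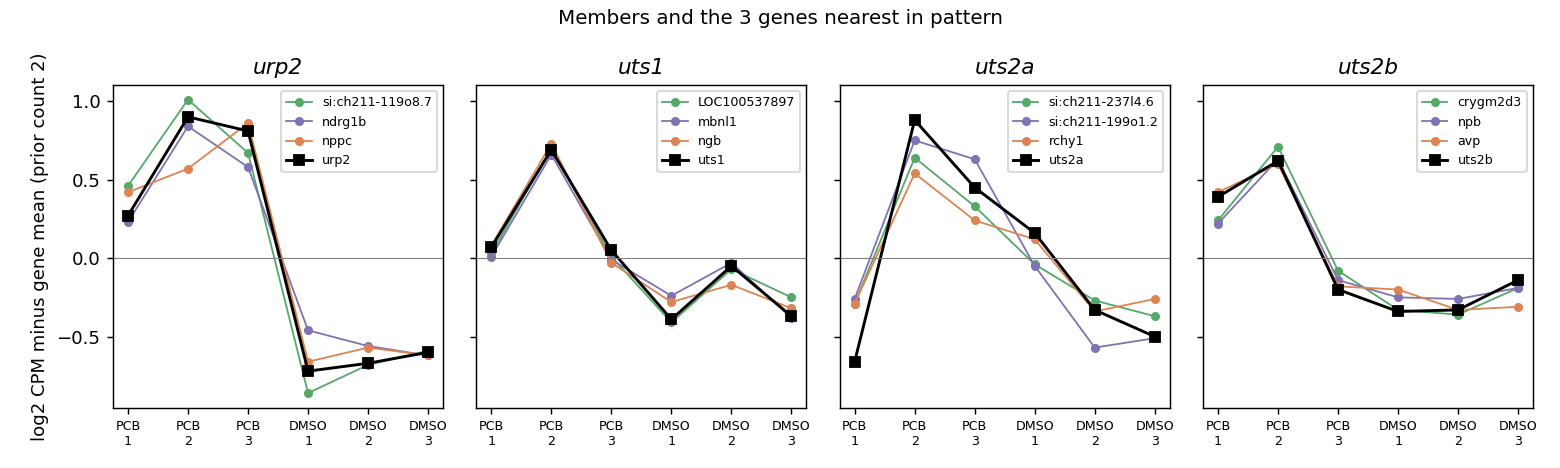
Log2 CPM minus the gene's mean (vertical axis, prior count 2) in the 3 PCB-11 and 3 DMSO pools for each member (black) and the 3 genes nearest to it in pattern (colours). In the urp2 and uts1 panels all PCB-11 pools lie above all DMSO pools, and both genes are highest in PCB-11 replicate 2 (0.90 and 0.69). PCB-11 replicate 3 is close to that for urp2 (0.81) but not for uts1 (0.05).

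The nearest matched protein-coding genes on either side of each member were read from the order of genes in the RefSeq assembly GRCz12tu. Next to urp2 were runx1, with a log2 fold change of -0.50 ± 0.28, and, beyond 4 genes not matched to the tables, atp1a1a.4, with -0.33 ± 0.14. Next to uts1 were mpv17 (0.01 ± 0.14) and trim54 (-0.09 ± 0.38). Those of uts2a were ccdc187 (-0.11 ± 0.11) and dnajc11 (-0.19 ± 0.09, beyond 1 unmatched gene), and those of uts2b were per3 (-0.31 ± 0.18) and znf362a (0.08 ± 0.10, beyond 5). None of these 8 genes was called, and they were chosen by position after the members' values were known.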

How the data were processed

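Poly(A) RNA of 6 pools of whole larvae was sequenced from directional libraries, with RNA integrity numbers of 6.9 to 9.2, per the labels' protocols. The authors deposited 1 table of raw read counts by gene symbol for each pool. The submitters' processing notes name danRer7 and Cufflinks, and which aligner, counter, strand setting or annotation was used is not given in the sources used here. Reads outside genes (31.4% to 39.1% per pool) and ambiguous reads (0.379% to 0.429%) stayed out of library sizes and tests.

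The counts were tested with edgeR 4.0.16 under R 4.3.3 (default filter, TMM scaling, robust quasi-likelihood F tests, two-sided, Benjamini-Hochberg adjustment over all 12960 genes). Log2 CPM used a prior count of 2. Standard errors were derived from the F statistic. The code was tested on simulated data. Of the members, every gene is named. Of each pathway list, the 4 genes with the smallest p, any called gene and every tested receptor or relative are named, and gad1b, pcsk1, pcsk2, 4 further ccdc genes and 4 glia genes were added after their values were seen. So were bbs4, kif7, pkd2, rpgrip1l, c10h21orf59, ift80, espn, gata2a, gata2b, gata3, slc1a3b, mpz and slc7a7, which were not recomputed under the alternatives. Members, lists and this rule were chosen with earlier results of these data known. Of 99 different entries in the 5 pathway lists, 64 genes were matched, by symbol or by RefSeq synonyms of assembly GRCz12tu. Without length data of the authors' build, levels were not compared between genes.

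Alternatives were 3 other scalings, 2 other filters, DESeq2 1.42.0, limma-voom (limma 3.58.1), a replicate block and leaving out each pool. Figures used matplotlib 3.10.9.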

Additional observations from a re-analysis of the deposited data

How the results depend on the processing

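The log2 fold changes of the 4 members stayed above 0, and within 1 SD of the replicates of the reported value, in all alternatives that could be fitted. They ran from 1.26 to 1.56 for urp2, 0.33 to 0.69 for uts1, 0.24 to 1.01 for uts2a and 0.45 to 0.87 for uts2b. The stricter filter removed uts2a and uts2b, and DESeq2 gave neither an adjusted p. Leaving out PCB-11 replicate 2 gave the lowest value of each. Of the members, urp2 alone was ever called: by DESeq2 (0.864% of all genes), with the replicate block (0.201%) and without PCB-11 replicate 3 (1.41%). The members were chosen with urp2 known to stand out in this contrast, so these calls are description only. The number of genes called was 6 as reported, 112 in DESeq2, 0 in limma-voom (1540 at an unadjusted p under 0.05), and 0 to 184 on leaving out each pool, with 184 without PCB-11 replicate 3 and 0 without PCB-11 replicate 1, DMSO replicate 1 or DMSO replicate 3 (1702, 1050 and 988 at an unadjusted p under 0.05 in edgeR). It was 1 without DMSO replicate 2. The number of pathway list genes called was 0 as reported, 2 in DESeq2 and 0 to 3 on leaving out each pool (crhbp, tal1 and foxj1a without PCB-11 replicate 3). With the replicate number as a block, 26 genes were called over all and 1 in the pathway lists, crhbp, and urp2 was among the 26. Same-numbered pools correlated in their deviations from the group means at 0.26, -0.15 and 0.37. Replicates 1 and 3 of each group correlated best with their own number, and replicate 2 did not. Replicates 1 and 3 correlated with each other across groups at -0.40 and -0.34. As replicate 2 differed, the numbers were not taken as pairs in the reported fit, but a pairing was not excluded. Of 40 other genes given a log2 fold change and recomputed, 6 changed sign: pcsk1, to 0.33, 0.18 and 0.13 without PCB-11 replicate 3, DMSO replicate 1 and DMSO replicate 2 (-0.44 to 0.33 over the pools left out), pcsk2, to 0.11 without PCB-11 replicate 3 (-0.42 to 0.11), trim54, to 0.12 and 0.15 without PCB-11 replicates 1 and 2 (-0.67 to 0.15), mpv17, to -0.02 and -0.11 without PCB-11 replicate 2 and DMSO replicate 2 (-0.11 to 0.10), crhb, to -0.10 without PCB-11 replicate 2 (-0.10 to 0.36 on leaving out each pool), and crhr2, to 0.07 without DMSO replicate 3 (-0.41 to 0.07). The causes were not tested. Depth limits uts2a, uts2b and uts2d, with 6 to 33 reads per pool.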
